A study of Homo sapiens with 10 samples.

Results

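Cytosolic DNA sensing was followed in HCT-116, a human line established from a colorectal carcinoma, through 6 genes picked by name from the 32738 genes of the single-cell count tables: MB21D1 (the DNA sensor cGAS), IFI16, TMEM173 (the adaptor STING), TBK1, TREX1 and SAMHD1. The treated cells received 200 nM doxorubicin (DOX), a drug that damages DNA, for 24 h and recovered without it for 6 d (2 libraries), and the comparison cells were untreated (2 libraries). Both were labelled wild type. Each droplet carries a barcode, and each captured transcript a unique molecular identifier (UMI), so that transcripts were counted per gene and barcode. Unless other barcodes are named, all values come from barcodes with at least 20000 UMIs and a mitochondrial share below 8%, here called deep barcodes. They numbered 1307 and 1080 in the DOX libraries and 3572 and 2137 in the untreated libraries.

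DNA is normally kept in the nucleus and in mitochondria. When it appears in the cytosol, cGAS binds it and makes the messenger cGAMP, which activates STING, and STING in turn recruits the kinase TBK1 to phosphorylate IRF3, a transcription factor that starts interferon genes. The nuclease TREX1 removes cytosolic DNA, SAMHD1 breaks down free deoxynucleotides and limits the release of DNA from stalled forks, and IFI16 is a DNA-binding protein that feeds into the same route. Several of these genes are themselves known to respond to interferon.

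In hg19, IFI16 (ENSG00000163565) lies on chromosome 1 at 158969758-159024945, MB21D1 (ENSG00000164430) on chromosome 6 at 74123238-74162020 and TMEM173 (ENSG00000184584) on chromosome 5 at 138855118-138862520. TBK1 (ENSG00000183735) lies on chromosome 12 at 64845870-64895894, TREX1 (ENSG00000213689) on chromosome 3 at 48507210-48509044 and SAMHD1 (ENSG00000101347) on chromosome 20 at 35518632-35580296. TREX1 overlaps ATRIP on the same strand, so its counts are uncertain where reads could belong to either gene. MB21D1, IFI16 and SAMHD1 overlap a protein-coding gene on the opposite strand, and whether the counting used strand is not given in the sources used here.

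The RefSeq table of sequences around gene starts (GRCh38.p14) held windows for 4 of the 6 genes, 5 windows in all. They were searched on both strands for 2 TTTC elements set 2 bases or 1 base apart, forms of the interferon-stimulated response element bound by ISGF3 and IRF factors, and for TTCNNNGAA, the element bound by STAT dimers, which can overlap it. The 1-base spacing was added after the windows had been read. Of 35116 windows of the same length, 3.57%, 3.12% and 7.66% held these motifs. The single match in the 5 windows was GAAACGAAA, the 1-base spacing read on the opposite strand, 54 bases before the start in the second IFI16 window. A match describes the letters and not a bound site. The 250 bases before that start are shown because IFI16 had the largest log2 fold change of the 6 genes and the match lies there, in capitals. They are chr1:159009657-159009906 on the plus strand.
IFI16: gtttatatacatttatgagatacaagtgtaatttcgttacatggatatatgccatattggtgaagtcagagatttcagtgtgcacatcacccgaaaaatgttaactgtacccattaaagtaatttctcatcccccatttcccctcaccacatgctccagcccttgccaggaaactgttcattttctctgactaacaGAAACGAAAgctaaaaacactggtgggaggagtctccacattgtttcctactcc

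Deep barcodes had medians of 72676 and 84829.5 UMIs in the DOX libraries and 72791.5 and 81168 UMIs in the untreated libraries, so the depth per barcode was alike. The sums that were tested were not of equal depth, with 103833151 and 102333220 UMIs in the DOX libraries and 291488794 and 199164759 UMIs in the untreated libraries. At most 3 deep barcode sequences of a library occurred in another library. The UMIs of each library were summed before edgeR's quasi-likelihood test was run, with 2 DOX sums against 2 untreated sums. Whether the libraries of a condition were grown as separate cultures is not stated, so the p-values reflect only how far these 4 libraries spread, which may be technical. An exact permutation test of 2 against 2 cannot go below 0.33. Of the fixed colon epithelial markers, 7 of 8 stood at 19.6 to 2038 CPM, the UMIs of a gene relative to all UMIs of the library, and CDX1 was near 0. The 9 measured markers of other cell types summed to 5.31 and 5.47 CPM in the DOX libraries and 2.89 and 2.92 CPM in the untreated libraries, mostly from COL1A1, and CD3E was at 0 in 1 library. Of these markers, 7 of 9 were higher in both DOX libraries than in both untreated ones. This count says little on its own, because scaled levels of the 2 conditions did not overlap in 78.4% of 21563 tested genes, counting both directions. The share of all genes higher in both DOX libraries was not taken. Their part in the results was not tested.

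With DOX, 5 of the 6 genes passed an adjusted p of 0.05: IFI16, TMEM173 and SAMHD1 were higher, TBK1 and TREX1 were lower, and MB21D1 did not pass. This count says little on its own, because 54.6% of 21563 tested genes passed (28.2% higher, 26.4% lower), and IFI16 was tested only because its DOX level passed the low-count filter. The sizes and the values per library are therefore described gene by gene. In 5 of the 6 genes the TMM-scaled levels of the 2 conditions did not overlap, as in 78.4% of all tested genes. TMM factors, which set the bulk of genes to no change, scaled the log2 fold changes. Scaling by library totals adds 0.17 to the median gene, and none of the 6 genes changed direction or lost its call under it.

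**Figure D1:**
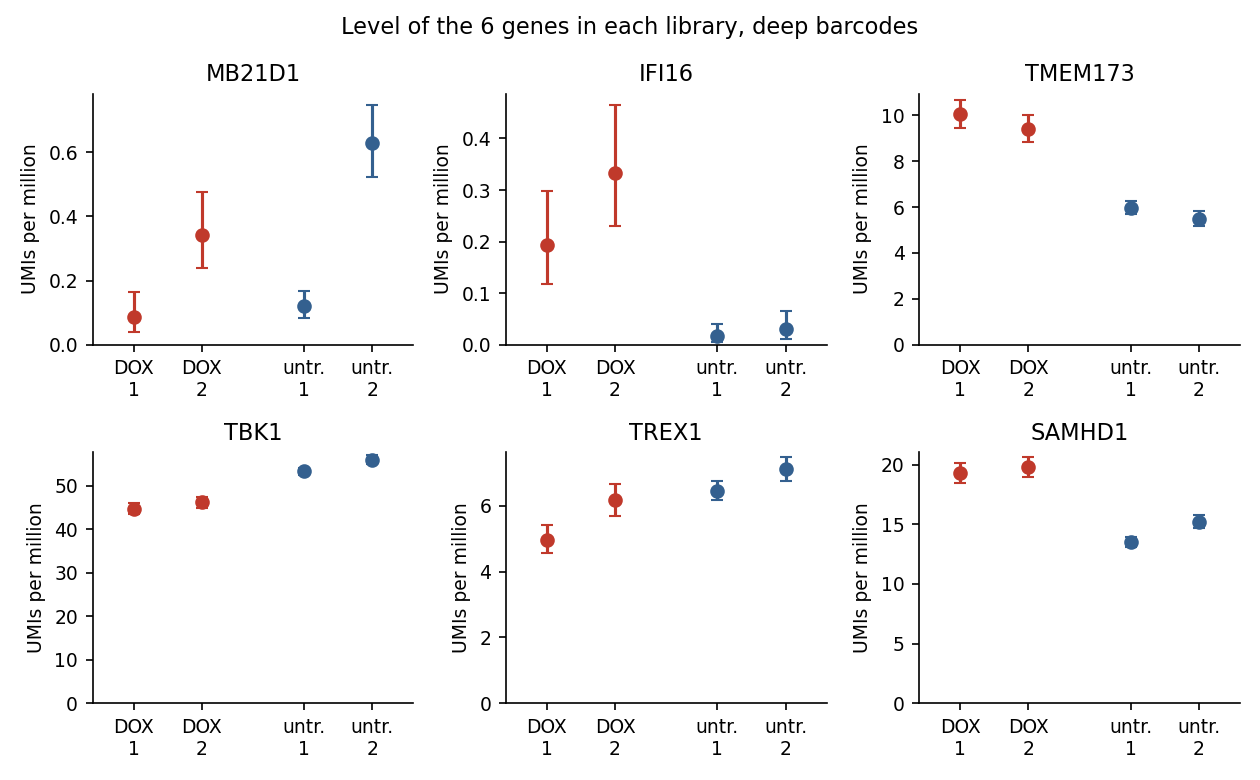
CPM (y axis, from 0) of the 6 genes in each of the 2 DOX (red) and 2 untreated (blue) libraries, with exact Poisson 95% intervals that cover counting error only. The DOX and untreated libraries do not overlap for IFI16, TMEM173, TBK1, TREX1 and SAMHD1, and they do for MB21D1.

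Both sensors had few UMIs in every library. MB21D1, which encodes cGAS, had 9 and 35 UMIs in the DOX libraries, against 35 and 125 UMIs in the untreated libraries. As levels these were 0.0867 and 0.342 CPM with DOX and 0.120 and 0.628 CPM without it. The ranges overlap. The log2 fold change was -0.90 (SE 0.75, 95% interval -2.60 to 0.81, edgeR adjusted p = 0.34). Only 8 of 1307 and 16 of 1080 DOX barcodes held an MB21D1 UMI, against 24 of 3572 and 34 of 2137 untreated barcodes. In untreated replicate 2, 4 barcodes held 89 of the 125 UMIs, and 1 of them held 29. Outside the 4 barcodes with most UMIs in each library (a choice made after these values were seen), the level was 0.0385 and 0.117 CPM with DOX and 0.072 and 0.181 CPM without. The call of MB21D1 turned on single libraries: the log2 fold change was 0.60 without untreated replicate 2 (edgeR adjusted p = 0.53), but -1.68 without untreated replicate 1 (adjusted p = 0.049) and -2.17 without DOX replicate 2 (adjusted p = 0.012), both of which passed, and -0.22 without DOX replicate 1 (adjusted p = 0.77). Raising the mitochondrial limit to 20% gave 0.63 (adjusted p = 0.37).

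IFI16 had few UMIs in untreated cells and more with DOX. It had 20 and 34 UMIs in the DOX libraries, against 5 and 6 UMIs in the untreated libraries, or 0.193 and 0.332 CPM against 0.0172 and 0.0301 CPM. The lowest DOX library stood above the highest untreated one, and 95% Poisson intervals of the levels did not overlap (from 0.118 CPM upward with DOX, up to 0.0656 CPM without). These intervals treat UMIs as independent, but 4 barcodes held 11 of the 20 UMIs in DOX replicate 1 and 15 of the 34 in DOX replicate 2. Outside the 4 barcodes with most UMIs, the level was 0.0867 and 0.186 CPM with DOX and 0 and 0.01 CPM without. Only 4 barcodes of untreated replicate 1 held a UMI. The log2 fold change was 3.32 (SE 0.47, 95% interval 2.26 to 4.38, edgeR adjusted p = 4.1e-04). IFI16 was tested only because its DOX level passed the low-count filter, so a higher DOX level was favoured before the test. The UMIs came from 13 of 1307 and 21 of 1080 DOX barcodes, or 0.995% and 1.94%, against 0.112% and 0.281% of untreated barcodes. The exact 95% intervals were 0.531 to 1.70% in DOX replicate 1 and 1.21 to 2.96% in DOX replicate 2, with upper bounds of 0.287% and 0.610% in the untreated libraries. The libraries hold no cell type known to lack the gene, so the share given by free RNA was not measured. PTPRC and LYZ, markers of blood cells, also stood higher with DOX. PTPRC was at 0.366 and 0.137 CPM, against 0.0103 and 0.0251 CPM in untreated libraries. LYZ was at 0.510 and 0.567 CPM, against 0.0926 and 0.0402 CPM. CD3E, another blood-cell marker, did not, at 0.0193 and 0 CPM with DOX and 0.00686 and 0.0201 CPM without. COL1A1, COL3A1 and ALB, which do not mark blood cells, were higher in both DOX libraries too. As given above, 7 of the 9 markers were, a count that says little on its own. The part of these markers in the IFI16 result was not tested.

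The adaptor rose while its kinase fell. TMEM173, which encodes STING, had 10.05 and 9.42 CPM in the DOX libraries, against 5.98 and 5.49 CPM in the untreated libraries. After TMM scaling the means were 9.19 ± 0.49 CPM with DOX and 6.09 ± 0.66 CPM without (SD, n = 2 each). The log2 fold change was 0.59 (SE 0.09, 95% interval 0.39 to 0.80, edgeR adjusted p = 6.1e-04), a 1.51-fold higher level. A UMI of TMEM173 was found in 45.6% and 46.6% of DOX barcodes, against 34.6% and 36.2% of untreated barcodes. Barcodes with 8 or more TMEM173 UMIs numbered 8 of 1307 and 8 of 1080 with DOX, against 1 of 3572 and 0 of 2137 without.

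TBK1, the kinase downstream of STING, was at 44.7 and 46.2 CPM in the DOX libraries, against 53.4 and 56.0 CPM in the untreated libraries. The TMM-scaled means were 42.9 ± 0.65 CPM with DOX and 57.95 ± 0.79 CPM without (SD, n = 2 each). The log2 fold change was -0.43 (SE 0.06, 95% interval -0.56 to -0.31, edgeR adjusted p = 2.5e-04), so TBK1 fell to 0.74 of its untreated level. At least 1 UMI was found in 88.3% and 90.2% of DOX barcodes, against 94.5% and 96.3% of untreated barcodes.

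The negative regulators moved in opposite directions. TREX1, the exonuclease, was at 4.98 and 6.18 CPM in the DOX libraries, against 6.47 and 7.12 CPM in the untreated libraries. The groups did not overlap, but DOX replicate 2 came close to untreated replicate 1. The log2 fold change was -0.45 (SE 0.10, 95% interval -0.67 to -0.23, edgeR adjusted p = 0.0044). Among barcodes of 100000 UMIs or more, TREX1 was at 3.28 and 5.09 CPM with DOX, against 6.07 and 6.48 CPM without. From 50000 to 100000 UMIs the conditions overlapped, at 5.71 and 7.60 CPM with DOX and 6.59 and 7.47 CPM without. They also overlapped from 20000 to 50000 UMIs, at 7.69 and 4.13 CPM with DOX and 7.65 and 12.9 CPM without. The part of UMIs per barcode in the TREX1 change was not tested. SAMHD1, the deoxynucleotide hydrolase, was at 19.3 and 19.8 CPM in the DOX libraries, against 13.5 and 15.2 CPM in the untreated libraries. Its log2 fold change was 0.28 (SE 0.06, 95% interval 0.14 to 0.42, edgeR adjusted p = 0.0039). With barcodes of up to 20% mitochondrial UMIs, SAMHD1 was at 0.15 and no longer passed (edgeR adjusted p = 0.06). That limit lets in 477 and 555 more DOX barcodes, against 370 and 155 more untreated ones.

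How far cells of a condition differed from each other in these genes was described next. To compare spread at one depth, every deep barcode was thinned to 20000 UMIs, and the variance of a gene's UMIs was divided by their mean, a ratio near 1 for random capture alone. For SAMHD1 the ratio was 1.23 and 1.32 in the DOX libraries, against 1.03 and 0.971 in the untreated libraries. For TBK1 it was 1.26 and 1.52 with DOX, against 1.09 and 1.07 without, although TBK1 was lower with DOX. TMEM173 had 1.13 and 1.31 with DOX, against 1.06 and 1.05 without. For TREX1 the conditions overlapped, with 1.00 and 1.13 in the DOX libraries and 1.03 and 1.00 in the untreated libraries. After thinning, TMEM173 was found in 17.4% and 13.8% of DOX barcodes, against 10.7% and 10.1% of untreated barcodes, and SAMHD1 in 29.99% and 30.6%, against 23.6% and 26.3%. TBK1 was found in 54.4% and 54.1% of thinned DOX barcodes, against 64.3% and 67.0% of untreated ones. The ratio was computed for the 6 genes only, so whether it was also higher with DOX in most other genes is not known. Mean thinned UMIs differed too. They were 0.400 and 0.399 with DOX against 0.272 and 0.299 for SAMHD1, and 0.204 and 0.169 against 0.117 and 0.109 for TMEM173. Before thinning, a barcode of DOX replicate 2 held 55 TBK1 UMIs, against at most 31 in a barcode of the other libraries. The 8 barcodes of each DOX library with 8 or more TMEM173 UMIs held 110 of 1044 and 92 of 964 UMIs. The part of such barcodes, and of the mean, in the ratio was not tested. With 2 libraries a side these are descriptions.

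**Figure D2:**
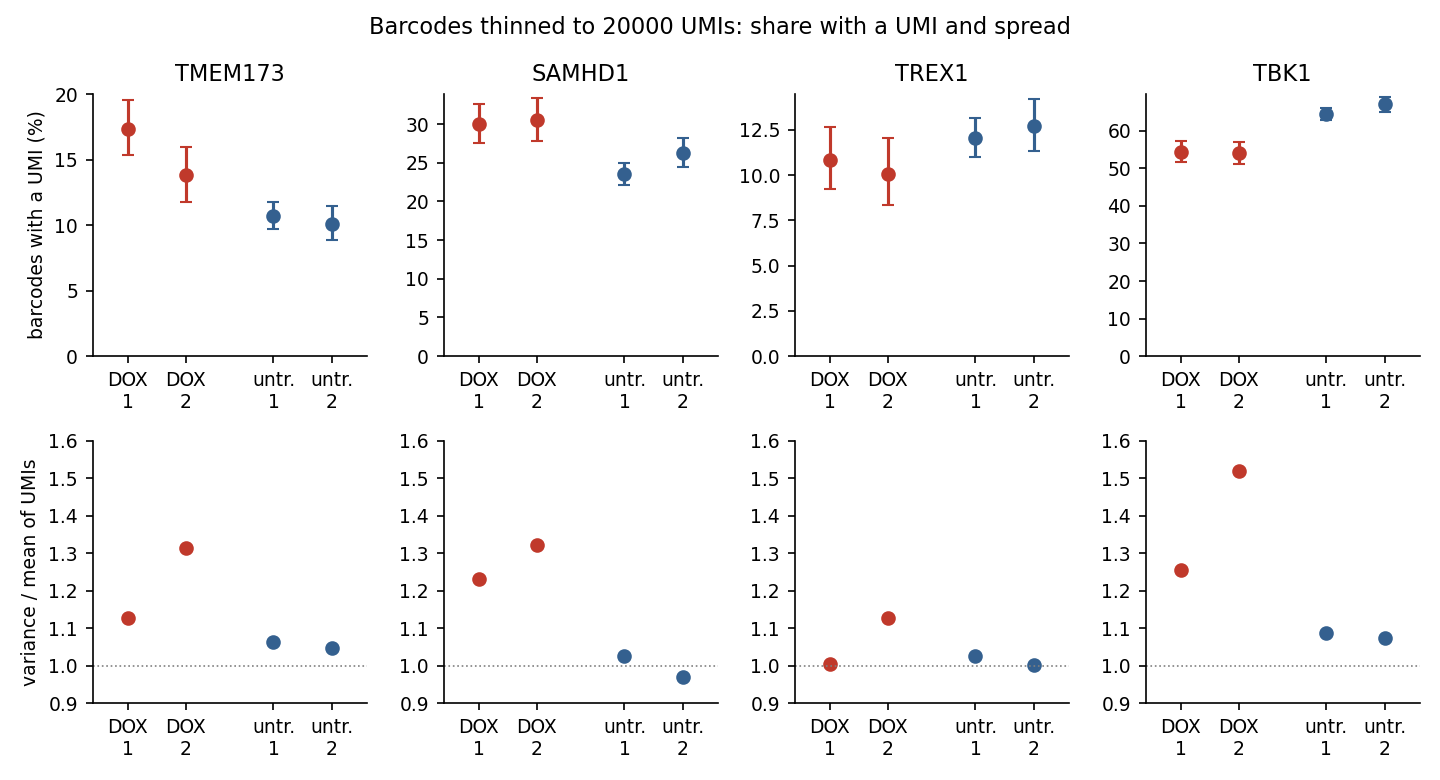
Barcodes thinned to 20000 UMIs in the 2 DOX (red) and 2 untreated (blue) libraries. Top, share of barcodes with at least 1 UMI (percent, exact binomial 95% intervals); bottom, variance over mean of UMIs per barcode, with a dotted line at 1. SAMHD1, TBK1 and TMEM173 lie higher in both DOX libraries than in both untreated ones in the bottom row, and TREX1 does not. The share of all genes that do so was not computed.

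Whether the 6 genes go with interferon-stimulated genes between cells of one condition was examined next. Each deep barcode was given its share of UMIs from a list of interferon-stimulated genes without the 6, and the lowest and highest tertiles of each library were compared with library as a block. The median share was 0.167% and 0.168% in DOX libraries and 0.0315% and 0.0316% in untreated libraries. In DOX cells SAMHD1, TMEM173 and TREX1 were higher in the interferon-high tertile, where 22.4% of 18020 tested genes passed (13.2% higher, 9.2% lower). SAMHD1 had 25.8 and 25.7 CPM in the high tertile, against 14.3 and 14.4 CPM in the low tertile, a log2 difference of 0.90 (SE 0.07, edgeR adjusted p = 5.4e-07). TMEM173 had 14.0 and 12.1 CPM in the high tertile, against 7.94 and 7.73 CPM in the low tertile (0.80, SE 0.10, edgeR adjusted p = 3.3e-05). In the middle tertile TMEM173 was at 8.48 and 8.43 CPM, near the low tertile. SAMHD1 was at 18.3 and 19.4 CPM there, between the outer ones. TREX1 had 5.39 and 7.89 CPM in the high tertile, against 4.00 and 4.28 CPM in the low tertile (0.73, SE 0.15, edgeR adjusted p = 0.0022). The middle tertile had 5.62 and 6.40 CPM of TREX1, so that in DOX replicate 1 it lay above the high tertile and in DOX replicate 2 between the outer ones.

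TBK1 did not pass between the tertiles of DOX cells, with 43.0 and 45.3 CPM in the high tertile, against 46.6 and 47.5 CPM in the low tertile (log2 -0.03, 95% interval -0.15 to 0.09, edgeR adjusted p = 0.77). IFI16 had 11 and 25 UMIs in the high tertile and 7 and 6 UMIs in the low tertile, with 2 and 3 UMIs between them (log2 1.54, SE 0.55, edgeR adjusted p = 0.058). MB21D1 had too few UMIs to be tested there. The high and low tertiles also differed in other measures. Their median S and G2/M shares were 0.962% and 0.968% in the high tertile and 0.861% and 0.877% in the low tertile, and in DOX replicate 1 the median UMIs per barcode were 67845 and 77028.5. The part of either in the result was not tested.

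In untreated cells, where 26.4% of 18474 genes passed (10.9% higher, 15.5% lower), TMEM173 alone of the 5 tested genes passed. It had 6.95 and 5.95 CPM in the high tertile, against 5.12 and 4.87 CPM in the low tertile (log2 0.32, SE 0.08, edgeR adjusted p = 0.0015), and lost its call in thinned barcodes (0.42) and between upper and lower parts of equal size (0.18). SAMHD1 had 13.8 and 15.2 CPM in the high tertile and 13.4 and 15.2 CPM in the low tertile (log2 -0.04, 95% interval -0.14 to 0.07). The difference of the tertile effect between DOX and untreated cells was 0.99 for SAMHD1 (SE 0.08, edgeR adjusted p = 3.7e-05), 0.71 for TREX1 (SE 0.18, adjusted p = 0.016) and 0.54 for TMEM173 (SE 0.12, adjusted p = 0.0086), where 23.3% of 19365 genes passed (17.3% higher, 6.03% lower). The SAMHD1 difference passed under all 10 alternatives run. TREX1 was lost under 5 of 10, including 0.53 without untreated replicate 2 and 0.48 without DOX replicate 2, and TMEM173 under 3 of 10, including 0.45 without untreated replicate 2. The share of interferon-stimulated transcripts ranged more widely in DOX cells. Its medians there were 0.335% and 0.335% in the high tertile and 0.0813% and 0.0843% in the low tertile. In untreated cells they were 0.0434% and 0.0425% (high) and 0.0227% and 0.0232% (low). At so low a share the list gives few UMIs per barcode. How far counting error sorted untreated barcodes into tertiles was not tested. The differences of the tertile effect are therefore not shown to be particular to DOX cells.

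**Figure D3:**
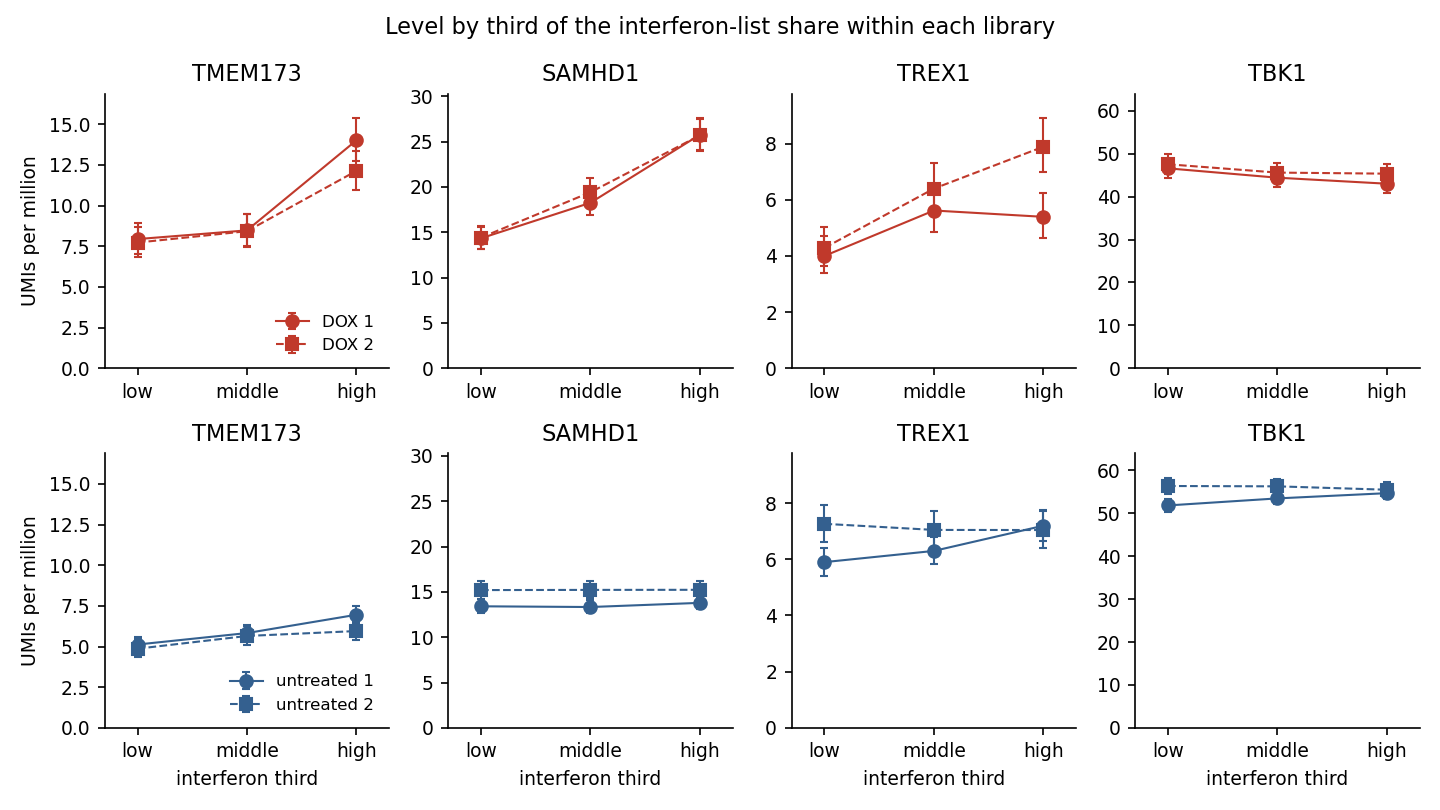
CPM (y axis, from 0) of TMEM173, SAMHD1, TREX1 and TBK1 in the low, middle and high tertile of the interferon-list share within each library, for DOX (top, red) and untreated cells (bottom, blue), with exact Poisson 95% intervals. SAMHD1 goes up to 25.8 and 25.7 CPM in the high tertile of DOX cells and stays between 13.3 and 15.2 CPM across the tertiles of untreated cells.

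The median share of genes of the S and G2/M phases was 0.927% and 0.929% in the DOX libraries, against 1.18% and 1.19% in the untreated ones, so the comparison was repeated within 2 classes of barcodes. Barcodes were split at an S and G2/M share of 1.185% of UMIs, the mean of the medians of the untreated libraries. The split is a cut through a range: 281 and 225 DOX barcodes and 1796 and 1072 untreated barcodes lay within 10% of it. The split did not match the conditions in the low class, where the median share was 0.788% and 0.848% with DOX and 1.075% and 1.077% without. In the high class it was 1.33% and 1.32% with DOX and 1.31% and 1.31% without. Among low-proliferation barcodes (1056 and 884 with DOX, 1825 and 1055 without), TMEM173 (0.72, SE 0.10), IFI16 (3.25, SE 0.60) and SAMHD1 (0.26, SE 0.07) were higher on the log2 scale, and TBK1 (-0.41, SE 0.06) and TREX1 (-0.66, SE 0.12) were lower, with edgeR adjusted p-values of 3.0e-04 to 0.011, where 54.2% of 20176 genes passed (27.6% higher, 26.5% lower). MB21D1 did not pass (-1.47, edgeR adjusted p = 0.14). IFI16 passed the low-count filter only through DOX in both classes, and in the low class its log2 fold change was 2.20 with the lower quartile of untreated barcodes as the cut and 2.62 without DOX replicate 2. SAMHD1 lost its call there without untreated replicate 1 (0.20) and without DOX replicate 2 (0.22).

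Among high-proliferation barcodes (251 and 196 with DOX, 1747 and 1082 without), where 25.3% of 18170 genes passed (12.9% higher, 12.4% lower), SAMHD1 was at 24.5 and 23.2 CPM with DOX, against 14.2 and 15.8 CPM without (log2 0.61, SE 0.09, edgeR adjusted p = 3.6e-05). TMEM173 was higher by 0.56 (SE 0.13, edgeR adjusted p = 0.0039), and lost its call without DOX replicate 1 (0.30). TBK1 was lower, at -0.25 (SE 0.07, edgeR adjusted p = 0.019), and lost its call under library totals (-0.18) and without either DOX library (-0.22 and -0.31). TREX1 had 5.09 and 5.02 CPM with DOX, against 5.34 and 6.08 CPM without, and did not pass (log2 -0.24, 95% interval -0.51 to 0.03, edgeR adjusted p = 0.2). IFI16 had 7 and 7 UMIs with DOX, against 2 and 4 UMIs without (log2 3.73, SE 0.67, edgeR adjusted p = 4.3e-04), and had too few UMIs to be tested with a library left out or after thinning. MB21D1 was not tested there. The difference between the low and the high class was tested itself, where 29.7% of 20657 genes passed (9.17% higher, 20.5% lower). It was -0.34 for SAMHD1 (SE 0.08, edgeR adjusted p = 0.0063), -0.42 for TREX1 (SE 0.14, adjusted p = 0.045) and -0.16 for TBK1 (SE 0.05, adjusted p = 0.025). The call was lost under 6 of 9 alternatives for TREX1 and for TBK1 and under 4 of 9 for SAMHD1. After thinning the differences were -0.05 for SAMHD1, -0.15 for TREX1 and -0.11 for TBK1, and none passed. Under library totals TREX1 (-0.32) and TBK1 (-0.05) did not pass. With single libraries left out, SAMHD1 ranged over -0.44 to -0.19 and passed only without DOX replicate 2, TREX1 ranged over -0.66 to -0.16 and passed only without DOX replicate 2, and TBK1 ranged over -0.14 to -0.11 and never passed. The lowest sizes of SAMHD1 and TREX1 among these were those without DOX replicate 1.

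**Figure D4:**
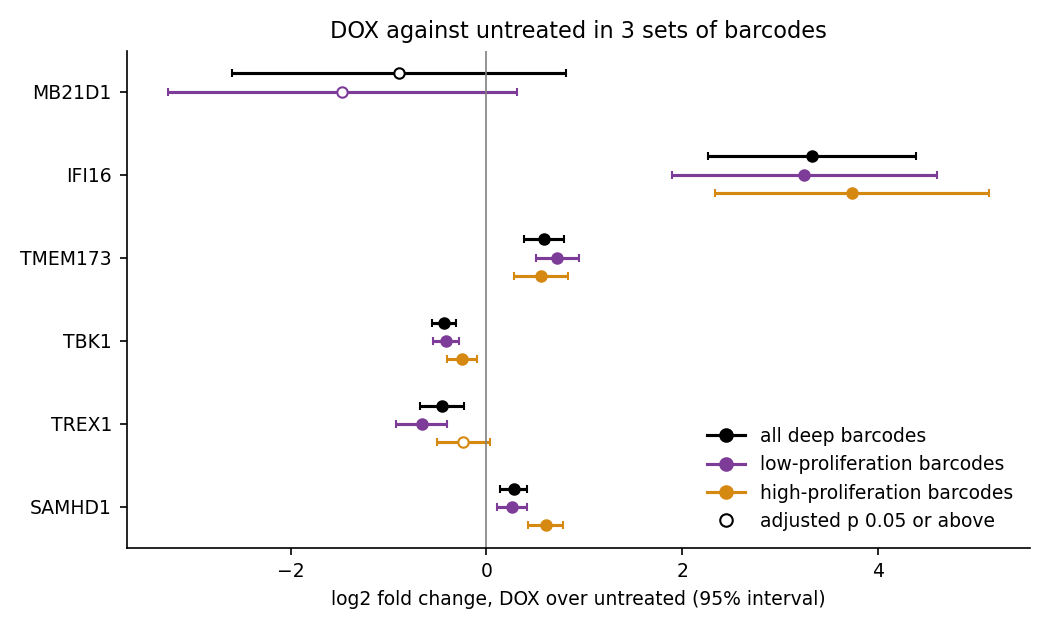
Log2 fold change of DOX over untreated (x axis, with 95% intervals from edgeR, 2 libraries against 2) for the 6 genes in all deep, low-proliferation and high-proliferation barcodes; open points have an adjusted p of 0.05 or above. IFI16 lies at 3.25 to 3.73 in the 3 sets, and MB21D1 has the widest intervals and was not tested in high-proliferation barcodes.

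The DOX libraries also held many barcodes of few UMIs, which are outside the comparisons above. The authors set the DOX libraries to 8000 barcodes each, and whether those of few UMIs held cells or free RNA was not tested. DOX barcodes under 2000 UMIs and below the same mitochondrial limit of 8% numbered 4338 and 4243. In them TMEM173 was at 15.0 and 13.9 CPM, TBK1 at 27.6 and 23.5 CPM and SAMHD1 at 11.04 and 11.4 CPM. Against the deep DOX barcodes TMEM173 was thus higher there, while TBK1 and SAMHD1 were lower. TREX1 was at 4.102 and 4.89 CPM, and IFI16 had 5 and 1 UMIs. Untreated libraries held 140 and 71 such barcodes with 0 TMEM173 UMIs, which allows up to 21.97 and 43.8 CPM, so no comparison was made.

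The genes around the 6 were read from 6 lists. Of 143 genes in the files outside the 6, 129 passed the low-count filter, 33 were called higher with DOX and 57 lower, beside 28.2% and 26.4% of all genes. Under library totals, where 39.3% of all genes were called higher and 15.1% lower, the lists had 48 higher and 34 lower. Other DNA sensors had 0 of 15 tested genes higher and 12 lower (8 lower under library totals), with a median log2 fold change of -0.40 beside 0.045 over all genes. HMGB1, a chromatin protein that binds DNA, was at 1566 and 1613 CPM with DOX, against 2379 and 2492 CPM without (-0.78, edgeR adjusted p = 8.9e-05). DHX9, a helicase, was at -0.54, and POLR3G, a subunit of RNA polymerase III, at -0.59. Of the genes that remove DNA or RNA-DNA hybrids, 4 of 18 were higher and 9 lower (5 and 6 under library totals), and 1 passed the filter only through DOX. FEN1, the flap endonuclease, was at -0.90, RNASEH1 at -0.66 and RNASEH2B, a subunit of RNase H2, at -0.51 (edgeR adjusted p = 5.3e-05, 5.6e-05 and 1.6e-04).

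Of the cGAS regulators and genes that handle cGAMP, 3 of 23 were higher and 12 lower (6 and 9 under library totals). SLC19A1, a folate carrier that also imports cGAMP, was at -0.69, PARP1 at -0.55 and the deubiquitinase USP14 at -0.50 (edgeR adjusted p = 5.1e-05 to 1.5e-04). Of the genes for traffic and turnover of STING, 9 of 37 were higher and 14 lower (16 and 8 under library totals). USP18, which also dampens interferon receptor signalling, rose by 1.56 (16.8 and 16.5 CPM with DOX, against 4.92 and 5.15 CPM without, edgeR adjusted p = 8.2e-07), and TMEM203 and RNF26 were at -0.59 and -0.51. In the TBK1 and IRF3 module 7 of 26 were higher and 10 lower (11 and 3 under library totals). These splits under library totals stand beside the 39.3% and 15.1% of all genes given above. IRF7, an interferon-inducible relative of IRF3, rose by 2.51 (13.7 and 14.6 CPM with DOX, against 2.22 and 2.18 CPM without, edgeR adjusted p = 2.0e-07). OPTN, an adaptor of TBK1, rose by 1.86, and TRIM21 by 1.23, whereas IRF3 itself was at -0.18 (edgeR adjusted p = 0.03), and at -0.01 under library totals (adjusted p = 0.9).

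Of the genes listed as outputs of the route, all 10 tested genes of the 19 in the files were higher, beside 28.2% of all tested genes. Among the 10, 1 passed the filter only through its DOX level. Several, among them IFIT1, OASL and IFIT3, are also in the list of interferon-stimulated genes used above. Whether this route raised them was not tested. IFIT1, an antiviral RNA-binding protein, was at 45.1 and 44.3 CPM with DOX, against 1.14 and 0.879 CPM without, a log2 change of 5.28 (SE 0.12, edgeR adjusted p = 3.2e-08). OASL rose by 3.92 and IFIT3 by 3.74. The interferons themselves were seen in few cells. IFNB1, interferon beta, had 16 and 0 UMIs in the DOX libraries and 0 and 0 in the untreated ones, and 15 of the 16 were in 1 barcode. IFNL1 had 127 and 3 UMIs with DOX, against 3 and 0 without, and 97 of the 127 were in 1 barcode. IFNL2 and IFNL3, near-identical copies whose counts may be split between them, had 84 and 62 UMIs in DOX replicate 1 and 1 UMI each in DOX replicate 2. None of these 4 genes passed the filter.

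**Figure D5:**
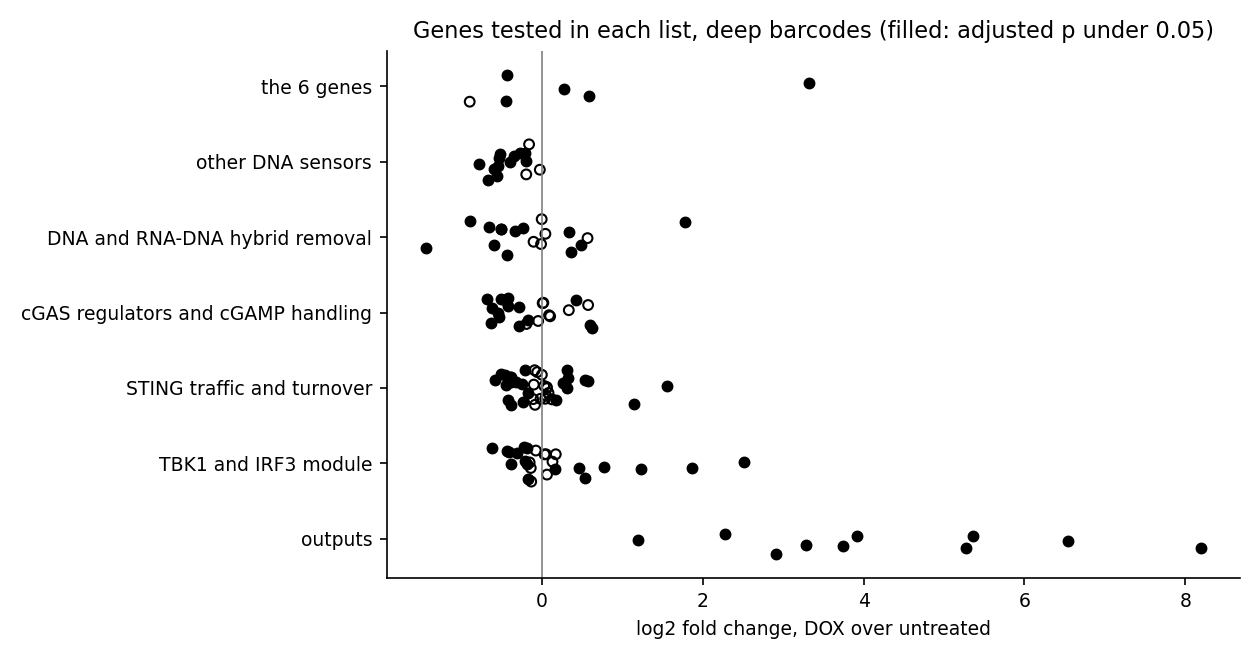
Log2 fold change of DOX over untreated (x axis) for the 6 genes and for each tested gene of the 6 lists around them, with filled points for an adjusted p under 0.05. The 10 outputs lie to the right of 0, and the other DNA sensors that were called lie to its left; the rightmost output, CXCL11, had 0 UMIs in both untreated libraries, so its fitted value depends on the prior count.

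Correlations across single DOX barcodes are given as a description, since these counts are sparse. Between pairs of the 6, Pearson's r of log-transformed thinned UMIs stayed within -0.0242 and 0.0746 over 1307 and 1080 barcodes, values that share library and capture. The highest r with interferon-stimulated UMIs was that of SAMHD1, at 0.139 and 0.160. With UMIs of the S and G2/M lists the r of SAMHD1 was nearly as high, at 0.124 and 0.102. There TBK1 had 0.0957 and 0.118, TREX1 0.11 and 0.0666, and TMEM173 -0.0391 and -0.0732. For genes with at least 0.2 UMI per thinned barcode, the closest of 9204 genes were sought in the DOX libraries. For SAMHD1 these were DDX58, which encodes the RNA sensor RIG-I (0.153 and 0.148), EIF2AK2, the kinase PKR (0.125 and 0.156), MELK, PARP9 and ARHGAP11B. For TBK1 they were MALAT1 (0.282 and 0.258), a nuclear long non-coding RNA, MED13L, DCBLD2, USP34 and ZFAND3. The other 4 genes were below that level.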

How the data were processed

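The deposited values are raw UMI counts per gene and barcode that the authors made with Cell Ranger (7.2.0 in the matrix headers, 7.0.0 in the processing notes) on hg19, without normalization; the DOX tables hold 8000 barcodes each. Whether intronic reads were counted is not given in the sources used here. The 6 bulk samples were not analysed here. Members, lists and tests were chosen with earlier results of these data known. Deep barcodes (at least 20000 UMIs, below 8% mitochondrial) were summed per library and tested with edgeR 4.0.16 (filterByExpr, TMM, quasi-likelihood test, Benjamini-Hochberg over all tested genes, threshold 0.05; n = 2 against 2). Depth was 102333220 to 291488794 UMIs per library. Poisson and binomial intervals are exact, at 95%, and cover counting error only. Doublets were not called. The replicates differed by more than counting. Named pathway genes are, list by list, the 3 of lowest adjusted p, beyond which IRF3, CXCL11 and the interferons were chosen after their values were seen. Positions come from GENCODE v44 lifted to GRCh37. The test was checked on simulated counts; it missed part of the genes given the smallest fold there, and the bar set for these was lowered after a first run. Alternatives were DESeq2 1.42.0, other scalings, filters and barcode limits, thinning and leaving out each library. Other tools were R 4.3.3 and Python 3.11.15.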

Additional observations from a re-analysis of the deposited data

Results flagged for a closer look

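Differences between DOX and untreated cells, or between classes of cells, were tested themselves for the 6 genes, and 6 passed. The change between the lowest and highest interferon tertiles was larger in DOX cells for SAMHD1 (0.990), TREX1 (0.713) and TMEM173 (0.537 on the log2 scale). The call was lost under 5 of 10 alternatives for TREX1 and 3 of 10 for TMEM173, and kept under all 10 for SAMHD1. Untreated tertiles were cut on a narrower and lower share, and how far counting error sorted them was not tested. The DOX change in low-proliferation barcodes was below that in high-proliferation barcodes for SAMHD1 (-0.343), TREX1 (-0.425) and TBK1 (-0.163). The call was lost under 6 of 9 alternatives for TREX1 and for TBK1 and under 4 of 9 for SAMHD1, and none passed after thinning. Beside these 6 differences, 23.3% and 29.7% of all tested genes passed the same 2 tests.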

How the results depend on the processing

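Of the 16 alternatives to the DOX comparison, all kept direction and call for TMEM173 (0.48 to 0.76), TBK1 (-0.49 to -0.27) and TREX1 (-0.75 to -0.28), 15 of 16 for SAMHD1 (0.15 at a mitochondrial limit of 20%), and all 15 in which it was tested for IFI16 (2.88 to 3.66). MB21D1 had 0.627 at that limit and -2.171 to 0.604 when single libraries were left out. DESeq2 called 10124 genes and edgeR 11772. With the replicate block 12311 genes were called and MB21D1 passed (-0.90, edgeR adjusted p = 0.022); no other gene of the 6 changed its call. Deviations of same-numbered libraries correlated at 0.086, so the numbers are not taken as a pairing. Total scaling called 8472 genes higher and 3259 lower, against 6077 and 5695 with TMM. Leaving out single libraries within 1 condition's tertiles was not run, since no residual degrees of freedom remain. The alternatives for untreated tertiles and for both differences of tertile effect, and the left-out libraries of the proliferation classes, were chosen after seeing the data.

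Thinning to 20000 UMIs lowered the genes called between tertiles to 2007 in DOX cells (4028 unthinned) and 1555 in untreated cells (4874), for the difference of the tertile effect to 2146 (4511), in high-proliferation barcodes to 2599 (4593) and for the difference between proliferation classes to 3064 (6125). Thinned counts hold fewer UMIs. Splitting DOX cells at the median gave 2601. Leaving out single libraries gave 2292 to 5338 genes for the tertile difference, 2460 to 4730 in high-proliferation barcodes and 2344 to 5286 for the class difference. Thinned to 10000 UMIs, the log2 ratios of mean UMIs were -0.203 for TBK1 (-0.290 at 20000), -0.169 for TREX1 (-0.208) and 0.650 for SAMHD1 (0.486).

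Values without a call changed sign as follows. Between untreated tertiles, MB21D1 was at -0.030 with a minimum of 40000 UMIs and -0.463 when split at the median, and total scaling gave 0.031 for TBK1 and 0.023 for SAMHD1. For the tertile difference, TBK1 was at -0.121 under total scaling, -0.070 after thinning and -0.014 to 0.078 with single libraries left out, and MB21D1 at -1.841 to 0.780. In low-proliferation barcodes MB21D1 ranged over -2.672 to 0.233. For the class difference MB21D1 was at 2.524 after thinning and -0.437 to 3.891 with single libraries left out, TMEM173 at -0.021 to 0.449 and IFI16 at -1.236 to 0.093. The causes were not tested. MB21D1 and IFI16 had the fewest UMIs of the 6 genes, at most 125 in a library.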

Other observations

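The barcodes with interferon transcripts were looked at after their UMIs were seen. In DOX replicate 1, 8 deep barcodes held 289 UMIs of IFNB1, IFNL1, IFNL2 or IFNL3, and in DOX replicate 2, 3 barcodes held 5, against 1 barcode with 3 UMIs in untreated replicate 1 and 0 in untreated replicate 2. In the 8 barcodes TMEM173 was at 10.3 CPM (exact Poisson 95% interval 4.43 to 20.2), TBK1 at 35.9 CPM (23.8 to 51.9), SAMHD1 at 23.1 CPM (13.7 to 36.5) and TREX1 at 5.13 CPM (1.40 to 13.1). The remaining 1299 barcodes of that library had 10.1, 44.8, 19.3 and 4.98 CPM of the same genes. MB21D1 and IFI16 had 0 UMIs in the 8 barcodes, which at 95% allows up to 4.73 CPM of each. No difference was detectable at this depth.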
